A study of Mus musculus with 36 samples.

Results

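The clustered histone genes are the histone genes, most of them replication-dependent, that are named for the Hist1, Hist2, Hist3 and Hist4 clusters of the mouse genome. They were taken as every row of the count table whose GENCODE vM21 symbol has the Hist cluster prefix and a histone class (H1, H2A, H2B, H3 or H4), with pseudogenes left out. The rule used names only and no measured value. It found 67 genes among 32285 mouse gene IDs. Of these, 6 encode linker histones (H1) and 61 encode core histones, namely 18 for H2A, 18 for H2B, 12 for H3 and 13 for H4. On GRCm38, 54 lie on chromosome 13 (Hist1, chr13:21715763-23934851), 10 on chromosome 3 (Hist2, chr3:96219865-96270132), 2 on chromosome 11 (Hist3, chr11:58948920-58956830) and 1 on chromosome 6 (Hist4h4, chr6:136801553-136804415).

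Core histones form the octamer around which DNA is wrapped, and linker histones bind the DNA where it enters and leaves that particle. Most mRNAs of these genes are made in S phase and end in a conserved stem-loop that is bound by the stem-loop binding protein (Slbp) in place of a poly(A) tail. Some of the genes also make longer transcripts with a poly(A) tail, in particular in cells that have stopped dividing. A library made by poly(A) selection captures little of the RNA without a tail, so the levels given here are not those of all mRNA of a gene.

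The libraries came from 2 mouse lines of breast cancer, E0771, from a mammary adenocarcinoma, and AT-3, from a tumour of an MMTV-PyMT mouse. Each line had 6 treatments of 24 h with 3 libraries each. These were 40 mM KCl with 10 µM NS11021, 40 mM KCl with 10 µM BMS204352, 40 mM KCl, 10 µM NS11021, 10 µM BMS204352, and the solvent DMSO. Both compounds open BK potassium channels, and BMS204352 opens KCNQ channels as well. Libraries were made with a kit that selects mRNA, per the labels' protocols. No group matched KCl for osmolarity or chloride, so effects of potassium, chloride and osmolarity cannot be told apart. The labels do not say that replicates came from separate cultures, so p-values measure the spread between these libraries, which may be technical.

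Library totals were 31.2 to 47.9 M counts in E0771 and 38.5 to 52.6 M in AT-3, and levels are counts per M of the library total (CPM). Replicate 3 of BMS204352 in both lines and of KCl+BMS204352 in AT-3 were taken as libraries that stood apart from their groups. Between replicates the chi-square per degree of freedom over genes reached 100 in the AT-3 libraries with BMS204352 (9.47 to 37.0 in the remaining AT-3 groups) and 29.0 in the E0771 libraries with BMS204352 (4.84 to 18.7 in the remaining E0771 groups). In AT-3 this measure reached 37.0 with KCl+BMS204352, 34.6 with KCl and 29.8 with DMSO. By it, the KCl+BMS204352 library stood apart less clearly. The epithelial markers Cdh1 and Epcam had 1.41 and 0.0746 CPM in E0771 DMSO libraries, against 450 and 122 CPM in AT-3 DMSO libraries, while Krt8 had 202 CPM in E0771 and 0.349 CPM in AT-3. The 12 epithelial markers summed to between 202 and 207 CPM in E0771 DMSO libraries and between 2777 and 3010 CPM in AT-3 DMSO libraries. The 8 fibroblast markers summed to between 236 and 259 CPM in E0771 and between 46.0 and 61.4 CPM in AT-3. The 8 leukocyte markers summed to between 4.99 and 6.44 CPM in E0771 and between 0.228 and 0.848 CPM in AT-3, with Lyz2 at 5.65 CPM in E0771 and 0.440 CPM in AT-3 and the defining marker Ptprc at 0 in the DMSO libraries of both lines. The 6 endothelial markers summed to between 1.501 and 1.90 CPM in E0771 and between 1.75 and 2.05 CPM in AT-3.

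The annotated 3′ ends differed among the members. A histone stem-loop was taken as a 16-base run that starts with GG and ends with CC, has 6 paired bases on each side (G with T allowed) and a loop of 4 bases in which at least 2 of the first 3 are T. It was found on the transcript strand of 48 of 75 member transcripts (46 of 67 genes), against 3.11% of 58725 other protein-coding transcripts. The whole transcript was searched. Some annotated transcripts without it are short, such as those of Hist1h4k (312 bases), Hist1h2bn (381) and Hist1h2ai (393). There a missing feature may be a gap in the annotation. The sequence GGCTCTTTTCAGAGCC was the most common form, in 26 genes, none of them H4. The form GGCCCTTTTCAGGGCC was found in 7 genes, all H4. A poly(A) signal (AATAAA or ATTAAA) lay in the last 50 bases of 21 of 75 member transcripts (17 genes), against 50.2% of other protein-coding transcripts, and 14 genes had both features. The following pieces of GENCODE vM21 transcripts on GRCm38 are shown because they mark the ends of the genes that gave most of the reads, followed by the pair Hist1h2bj and Hist1h2ag, whose annotated transcripts stop just after the stem-loop. Capitals mark the stem-loop or the poly(A) signal, and sequences read 5′ to 3′ on the transcript strand.
Hist1h1c stem-loop, chr13:23739507-23739532, plus strand: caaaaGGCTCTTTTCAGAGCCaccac
Hist1h1c poly(A) signal, chr13:23740332-23740357, plus strand: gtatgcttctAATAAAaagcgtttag
Hist1h4i stem-loop, chr13:22040961-22040986, minus strand: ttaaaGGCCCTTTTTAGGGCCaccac
Hist1h4i poly(A) signal, chr13:22040641-22040666, minus strand: ttctgtttacATTAAAagtattctat
Hist3h2ba stem-loop, chr11:58949344-58949369, plus strand: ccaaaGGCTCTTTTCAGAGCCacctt
Hist3h2ba poly(A) signal, chr11:58949497-58949522, plus strand: taatggtattAATAAAtttggttcaa
Hist3h2a stem-loop, chr11:58955167-58955192, plus strand: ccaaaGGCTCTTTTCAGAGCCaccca
Hist3h2a poly(A) signal, chr11:58956787-58956812, plus strand: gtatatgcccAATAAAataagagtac
Hist2h2be poly(A) signal, chr3:96223707-96223732, plus strand: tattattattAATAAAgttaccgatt
Hist1h2bj stem-loop, chr13:22043633-22043658, plus strand: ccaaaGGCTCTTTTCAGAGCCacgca
Hist1h2ag stem-loop, chr13:22042478-22042503, minus strand: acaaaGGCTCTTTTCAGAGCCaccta
The transcripts of Hist1h1c, Hist1h4i, Hist3h2ba and Hist3h2a thus go on for 840, 330, 169 and 1643 bases after the stem-loop, while those of Hist1h2bj and Hist1h2ag go on for 23 bases each. Hist2h2be had a poly(A) signal and no stem-loop in its annotated transcript, and Hist1h2bc, whose annotated transcript has a second exon far downstream, had neither.

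The promoters shared short motifs. RefSeq promoter windows of GRCm38.p6, from 250 bases before to 50 after the start, matched 62 members, and motifs were searched on both strands. CCAAT was found in all 6 H1, 18 H2A, 16 H2B and 10 H3 windows but in 3 of 12 H4 windows, against 37.4% of 32851 windows genome-wide. TATAAA was found in 35 of 62 windows, against 13.6% genome-wide. The octamer ATTTGCAT was found in 13 windows, 7 of H2A and 6 of H2B genes, against 1.74% genome-wide. Overlapping matches were counted apart. Many H2A and H2B genes lie side by side and are read in opposite directions, so their windows overlap. A match in such a shared stretch was counted for each of the genes. The 250 bases before the start are shown for 3 genes, Hist1h1c, which changed with NS11021 in E0771, and Hist1h4i and Hist1h2bj, which had few or no counts in E0771. The Hist1h2bj window also holds, on the other strand, most of the promoter of Hist1h2ag, which is read in the opposite direction. Capitals mark CCAAT (or ATTGG, its reverse complement) and TATAAA.
Hist1h1c promoter, chr13:23738557-23738806, plus strand: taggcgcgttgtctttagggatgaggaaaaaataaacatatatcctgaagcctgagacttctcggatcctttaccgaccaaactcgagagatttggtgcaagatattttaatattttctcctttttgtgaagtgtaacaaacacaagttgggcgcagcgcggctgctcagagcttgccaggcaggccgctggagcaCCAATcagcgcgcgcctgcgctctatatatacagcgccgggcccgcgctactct
Hist1h4i promoter, chr13:22041363-22041612, minus strand: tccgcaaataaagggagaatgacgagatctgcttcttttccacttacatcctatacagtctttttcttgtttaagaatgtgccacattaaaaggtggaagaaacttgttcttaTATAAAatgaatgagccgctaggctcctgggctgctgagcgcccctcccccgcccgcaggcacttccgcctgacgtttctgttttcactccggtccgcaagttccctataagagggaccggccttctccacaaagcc
Hist1h2bj promoter, chr13:22042948-22043197, plus strand: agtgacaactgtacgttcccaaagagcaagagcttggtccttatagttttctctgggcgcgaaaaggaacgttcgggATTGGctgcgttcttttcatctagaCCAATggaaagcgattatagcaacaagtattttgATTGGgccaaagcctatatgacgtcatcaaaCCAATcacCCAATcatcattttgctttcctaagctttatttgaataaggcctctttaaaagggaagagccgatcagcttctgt

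Together the 67 members took a small share of the reads, with a median of 0.00559% of counts in E0771 libraries (range 0.00459 to 0.00665%) and 0.0104% in AT-3 libraries (0.00939 to 0.0150%). Only a few members gave more than traces. Averaged over the 18 libraries of a line, 9 members had at least 1 CPM in E0771 and 10 in AT-3, and 3 in E0771 and 6 in AT-3 had at least 3 CPM. The median member had 0.274 CPM in E0771 and 0.306 CPM in AT-3. Among the 14 genes with both a stem-loop and a poly(A) signal, 4 of 14 in E0771 and 6 of 14 in AT-3 had at least 1 CPM. Among the 32 genes with a stem-loop and no signal the counts were 3 and 2. Per kb of exon the medians of these classes lay the other way in both lines, at 0.221 CPM per kb with the signal and 0.508 without it in E0771, and at 0.392 with it and 0.476 without it in AT-3.

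Many members share sequence with other transcripts, which makes their counts uncertain. Hist2h2aa1, Hist2h2aa2, Hist2h3b and Hist2h2bb had 0 counts in all 36 libraries, and every 50-base word of their transcripts is shared with other transcripts. Other annotated genes at the same places also overlap 100% of their exon bases. The part of shared sequence and of overlap in these 0 counts was not tested. Another member, Hist2h3c1, is also fully shared and fully overlapped but had counts. In 19 members more than 80% of 50-base words are shared, and these had a median of 0.119 CPM in E0771 and 0.153 CPM in AT-3, with none at 1 CPM. The other 48 had medians of 0.352 and 0.442 CPM. How reads with several matches were counted is not given in the sources used here, so values of near-identical members are uncertain. The strand used in counting is not given either, and 21 members overlap an exon of a gene on the opposite strand. Hist1h2aa, Hist1h2ah and Hist3h2ba had 0 counts in all 18 E0771 libraries, which allows up to 0.00434 CPM, and had counts in AT-3. Such limits cover counting error only, and would be higher if fragments were counted more than once.

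**Figure D1:**
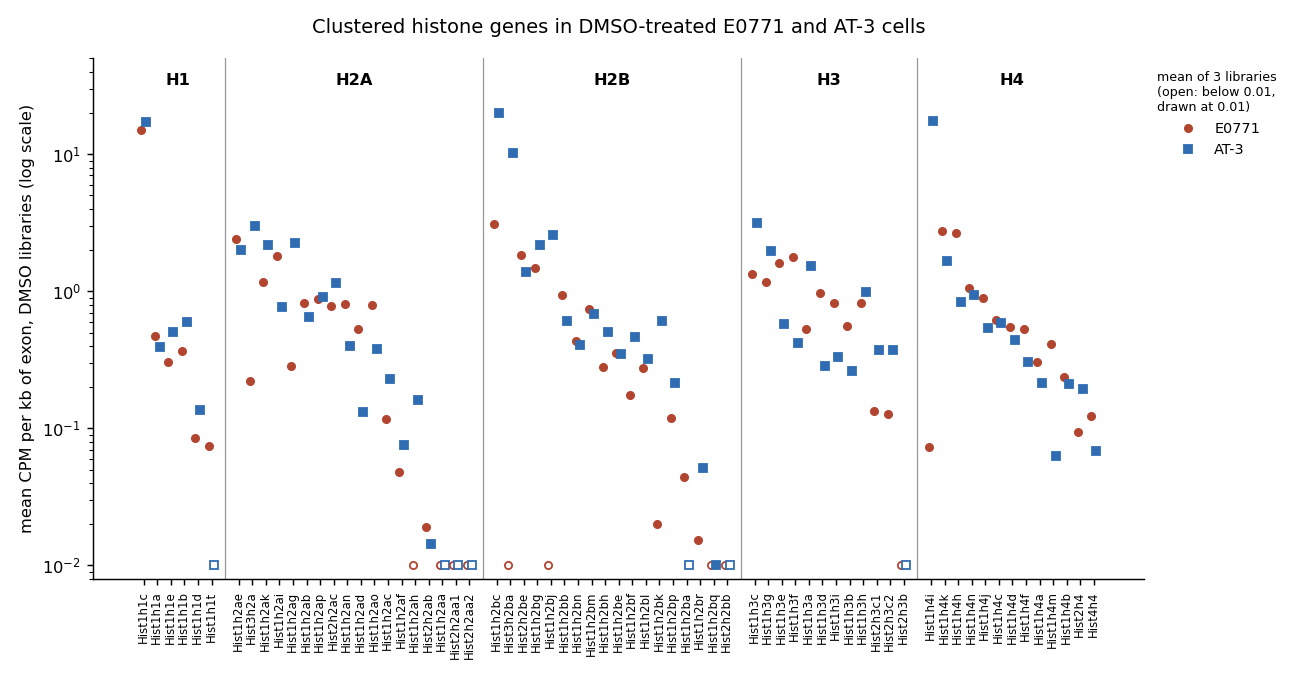
Mean CPM per kb of exon (log scale) of the 67 clustered histone genes in DMSO libraries of E0771 (circles) and AT-3 (squares), by class and then by level over all libraries, with open symbols for means below 0.01. Hist1h1c stands at 14.96 CPM per kb in E0771 and 17.05 in AT-3, whereas Hist1h4i and Hist3h2ba are high in AT-3 alone.

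Linker histone reads came almost wholly from 1 gene. Hist1h1c, which encodes histone H1.2 (chr13:23738808-23740367, 1 exon), had 27.9, 21.8 and 20.3 CPM in E0771 DMSO libraries and 28.2, 26.4 and 25.2 CPM in AT-3 DMSO libraries, ranges that overlap. It made up a median of 93.2% of linker counts in E0771 (84.7 to 96.2%) and 92.6% in AT-3 (90.3 to 95.5%). Per kb it had 14.96 ± 2.60 CPM in E0771 and 17.05 ± 0.976 in AT-3 DMSO libraries (SD, n = 3). The 5 other linker genes summed to between 1.63 and 2.29 CPM in E0771 DMSO libraries and between 2.55 and 2.83 CPM in AT-3 DMSO libraries. Among them, Hist1h1a, b, d and e encode the other somatic linker histones, and each had at most 1.79 CPM in any library. Hist1h1e shares 25.7% of its exon bases with other genes, Hist1h2be among them. Hist1h1t, the testis linker histone, had counts in 2 of 18 E0771 and 2 of 18 AT-3 libraries and was not tested.

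Core histone reads were led by different genes in the lines. In AT-3 DMSO libraries the highest levels per kb were those of the H2B gene Hist1h2bc (19.9 ± 0.866 CPM per kb), the H4 gene Hist1h4i (17.5 ± 2.31) and the H2B gene Hist3h2ba (10.2 ± 0.298), then the H3 gene Hist1h3c (3.15 ± 0.826) and the H2A gene Hist3h2a (2.98 ± 0.428; SD, n = 3). The first 2 of these did not differ beyond their spread, nor did the last 2. In E0771 the highest were Hist1h2bc (3.08 ± 0.711), the H4 genes Hist1h4k (2.74 ± 0.982) and Hist1h4h (2.65 ± 0.496), the H2A gene Hist1h2ae (2.39 ± 0.581), the H2B gene Hist2h2be (1.83 ± 0.487), the H2A gene Hist1h2ai (1.81 ± 1.17) and the H3 gene Hist1h3f (1.77 ± 0.393), and each overlapped its neighbour within its spread. The annotated exons of Hist1h4k and Hist1h2ai have 312 and 393 bases, so their levels per kb depend on how complete that annotation is. The H3 gene Hist1h3g had 1.17 ± 0.536 CPM per kb in E0771 and 1.97 ± 0.399 in AT-3, and the H2A gene Hist1h2ak had 1.16 ± 0.272 in E0771 and 2.17 ± 0.594 in AT-3. Hist1h2bc, Hist1h4i, Hist3h2a, Hist3h2ba and Hist2h2be, chosen for their mean CPM over all 36 libraries, together made up a median of 34.8% of core counts in E0771 and 70.0% in AT-3. Without these 5, the remaining 56 core genes summed to between 22.0 and 24.4 CPM in E0771 and between 21.01 and 25.8 CPM in AT-3 DMSO libraries, so the ranges overlapped. All of the 5 but Hist2h2be were higher in AT-3, so the larger AT-3 share and this overlap follow in part from the choice. The whole core set summed to between 30.0 and 33.7 CPM in E0771 and between 73.4 and 78.8 CPM in AT-3 DMSO libraries, ranges that did not overlap. The linker set summed to between 22.1 and 30.2 CPM in E0771 and between 27.7 and 31.01 CPM in AT-3.

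**Figure D2:**
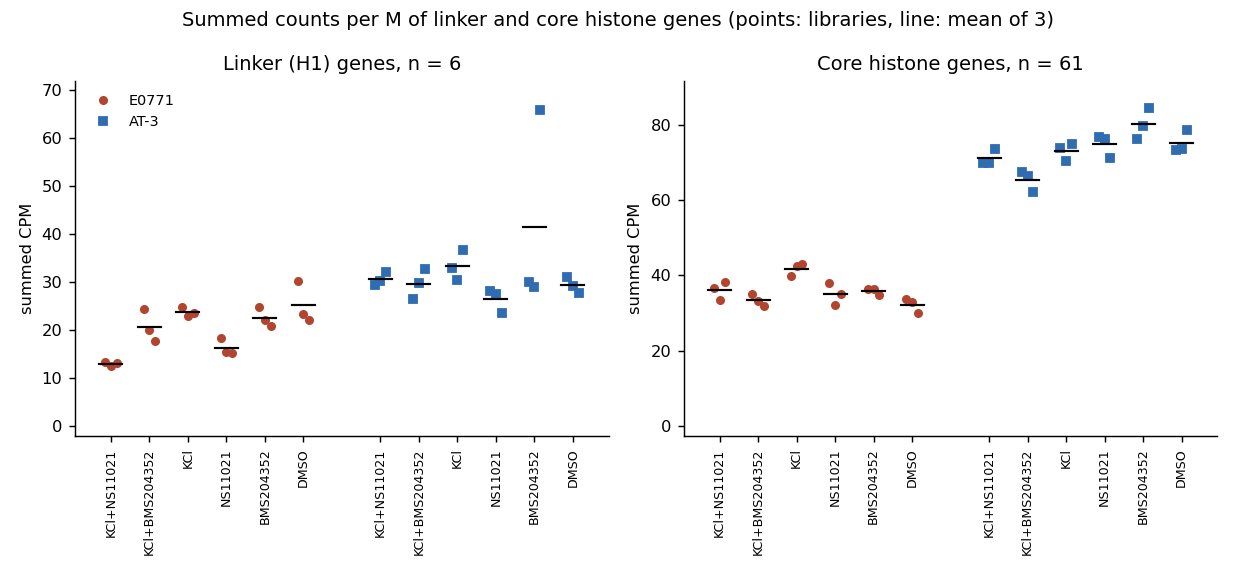
Summed CPM of the 6 linker and 61 core histone genes in each library, by treatment, with the mean of 3 as a line, for E0771 (circles, left) and AT-3 (squares, right). Core sums run from 30.0 to 43.0 CPM in E0771 and from 62.1 to 84.6 CPM in AT-3, and 1 AT-3 BMS204352 library reaches a linker sum of 65.7 CPM.

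The baseline comparison of the lines asked which members differ before treatment. Hist1h4i, Hist3h2ba, Hist3h2a, Hist1h2bj, Hist1h2bc, Hist1h2ag, Hist1h2bk, Hist2h3c1, Hist1h3a and Hist1h3c were lower in E0771, and the H3 genes Hist1h3d, Hist1h3e and Hist1h3f and the H4 gene Hist1h4h were higher. That is 4 members higher and 10 lower of 53 tested (edgeR's quasi-likelihood test, adjusted p below 0.05), where 74.5% of all 15969 genes tested passed, 34.1% higher and 40.4% lower. All 14 were core genes, and 0 of 5 tested linker genes passed. The filter did not require counts in both lines. In the fits of the lines alone, 53 members were tested in AT-3 and 45 in E0771. Over 18 E0771 libraries Hist3h2ba had 0 counts, Hist1h2bj 4 and Hist1h2bk 2, so these were tested because of their AT-3 counts. Such members could hardly be called other than lower in E0771, so the split of 10 lower and 4 higher depends in part on the filter. In the bulk RNA of a line, fewer cells with a transcript and less of it per cell cannot be told apart. The markers of the 2 lines differed as given above, and their part in these differences was not tested.

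Hist1h4i (chr13:22040636-22041362), a histone H4 gene, had 0, 0.102 and 0.0577 CPM in E0771 DMSO libraries, 6 counts in all, and 12.7, 11.02 and 14.4 CPM in AT-3 DMSO libraries. The groups did not overlap, and the log2 fold change was −7.85 ± 0.38 (SE, adjusted p = 1.61e-19 by edgeR). In no library of any treatment did it exceed 0.189 CPM in E0771 or fall below 6.999 CPM in AT-3. Hist3h2ba (chr11:58948920-58949533), an H2B gene, had 0 counts in every E0771 library and 6.46, 6.16 and 6.12 CPM in AT-3 DMSO libraries. It was at least 239-fold lower in E0771 DMSO libraries, taking 3 counts over the group as the limit. That bound would be smaller if fragments were counted more than once, which is not known. Its neighbour Hist3h2a (chr11:58954685-58956830), an H2A gene, had 0.341, 0.458 and 0.634 CPM in E0771 and 5.63, 7.41 and 6.14 CPM in AT-3 DMSO libraries (log2 −3.75 ± 0.28, adjusted p = 4.80e-14 by edgeR). It shares 33.0% of its exon bases with other genes, among them Trim17 on the same strand, which had 0.0531 CPM in E0771 and 0.461 CPM in AT-3. The next expressed genes on both sides of the pair were read in both lines, with 326 CPM of Rnf187 in E0771 and 500 CPM in AT-3, and with 38.7 CPM of Trim11 in E0771 and 45.1 CPM in AT-3.

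Hist1h2bc (chr13:23684199-23692908), an H2B gene, had 3.63, 4.35 and 2.71 CPM in E0771 DMSO libraries and 22.2, 24.1 and 22.7 CPM in AT-3 DMSO libraries (log2 −2.68 ± 0.15, adjusted p = 5.49e-18 by edgeR). It was read in all 36 libraries, and the lines did not overlap in any treatment. Hist2h2be (chr3:96221119-96223738), the H2B gene known in mouse olfactory neurons, had 6.17, 3.64 and 4.61 CPM in E0771 and 3.35, 3.86 and 3.65 CPM in AT-3 DMSO libraries. Those ranges overlapped, and the gene did not pass (log2 0.41 ± 0.21, adjusted p = 0.0697 by edgeR). Without replicate 2 of E0771 DMSO it passed (log2 0.57, adjusted p = 0.0206 by edgeR).

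The H3 and H4 genes that were higher in E0771 were scarce in both lines. Hist1h3f had 1.85, 2.06 and 2.80 CPM in E0771 and 0.236, 0.502 and 0.837 CPM in AT-3 DMSO libraries (log2 2.06 ± 0.51, adjusted p = 0.000534 by edgeR). Hist1h3d had 1.27, 1.297 and 1.10 CPM in E0771 and 0.377, 0.137 and 0.552 CPM in AT-3 (log2 1.75 ± 0.41). Hist1h4h had 0.975, 1.40 and 1.36 CPM in E0771 and 0.542, 0.137 and 0.494 CPM in AT-3 (log2 1.65 ± 0.47). Each of these 3 was higher in every E0771 DMSO library than in any AT-3 DMSO library, and so was Hist1h3e (1.19, 1.42 and 1.44 CPM in E0771 and 0.66, 0.365 and 0.418 CPM in AT-3). Hist1h3f shares 49.3% of its 50-base words with other transcripts, mainly those of Hist1h3e. Among the scarce genes that were lower in E0771, the call of Hist2h3c1 was lost without replicate 1 of either line's DMSO libraries, that of Hist1h3c without replicate 1 of E0771 DMSO or replicate 3 of AT-3 DMSO, and that of Hist1h3a without any DMSO library except replicate 1 of E0771.

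A run of adjacent genes around Hist1h4i had few or no counts in E0771. This run was noticed after the values were seen, so it is given as a description. Its clustered histone genes are Hist1h2ah, Hist1h2bk, Hist1h4i, Hist1h2ag and Hist1h2bj, between chr13:22035164 and 22043676. Hist1h2bj had 0 counts in E0771 DMSO libraries and 1.91, 0.730 and 0.932 CPM in AT-3 DMSO libraries, so it was at least 44.7-fold lower in E0771, by the same limit as for Hist3h2ba. Hist1h2ag had 0.0975, 0.0254 and 0.288 CPM in E0771 and 0.848, 1.25 and 1.16 CPM in AT-3. Hist1h2bk had 1 count in the 3 E0771 DMSO libraries and 40 counts in the 3 AT-3 DMSO libraries. On the side of lower coordinates, Prss16, which encodes a thymic serine protease, and Zfp184, which encodes a zinc finger protein (chr13:21945094-21960779), also had 0 counts in E0771 DMSO libraries, and means of 9.75 and 9.71 CPM in AT-3 DMSO libraries. Over all 18 libraries Zfp184 had 0 counts in E0771 and 8326 in AT-3, and Prss16 had 2 in E0771 and 7551 in AT-3. On the other side lie vomeronasal receptor genes that were listed at 0 CPM in the DMSO libraries of both lines. The members beyond Zfp184 other than Hist1h2bq had counts in the DMSO libraries of both lines, for example Hist1h4k at a mean of 0.855 CPM in E0771 and 0.522 CPM in AT-3 DMSO libraries, while Hist1h2bq had 0 counts in E0771 DMSO libraries.

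**Figure D3:**
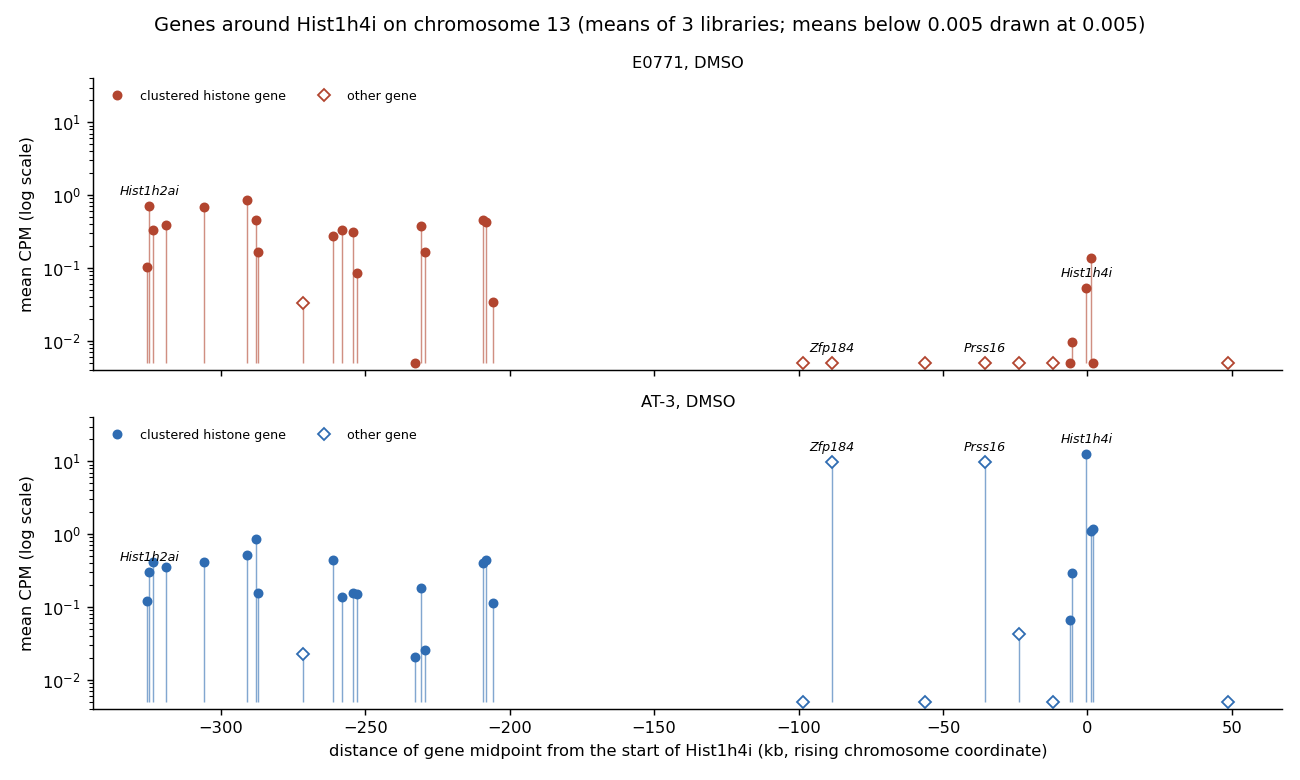
Mean CPM (log scale) in E0771 (above) and AT-3 (below) DMSO libraries of genes on both sides of Hist1h4i, by distance of the gene's midpoint from its start in kb, with filled circles for clustered histone genes and open diamonds for other genes, and means below 0.005 drawn at 0.005. From Zfp184 to Hist1h2bj, values are 0 or at most 0.137 CPM in E0771, while Zfp184, Prss16 and Hist1h4i lie between 9.71 and 12.7 CPM in AT-3.

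In AT-3 no clustered histone gene passed the test in any of the 8 comparisons. Of 53 members tested, 0 passed for KCl against DMSO (4.83% of all genes tested passed), 0 for NS11021 against DMSO (0.0745%), 0 for BMS204352 against DMSO (5.27%), 0 for KCl+NS11021 against KCl (0.0203%), 0 for KCl+BMS204352 against KCl (1.24%) and 0 for NS11021 against BMS204352 (2.94%), nor did any in the interactions of KCl with NS11021 and with BMS204352 (0% each). DESeq2 also called 0 members in each of the 8. At an unadjusted p below 0.05 edgeR gave 1, 2, 4, 0, 7, 4, 2 and 3 of 53 members in that order, where 17.7%, 7.64%, 21.7%, 3.72%, 16.3%, 18.1%, 2.02% and 3.61% of all genes tested reached that p. For KCl+BMS204352 against KCl, 41 of 53 members had a negative log2 fold change, with a median of −0.42, against 0.00 over all genes tested. The KCl+BMS204352 libraries included 1 taken to stand apart, and mitochondrial genes took 0.687 to 0.792% of their counts, against 0.491 to 0.58% in KCl libraries. The 42 genes of S phase and DNA replication summed to 4060 to 5034 CPM in KCl+BMS204352 and 5136 to 5374 CPM in KCl libraries. The 20 genes of G2/M and mitosis summed to 3841 to 4489 CPM and 5006 to 5220 CPM in the same order. Neither pair of ranges overlapped. The part of any of these in the negative signs was not tested.

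Hist1h1c and Hist1h2bc had 1 high library in AT-3. Hist1h1c had 28.1, 27.1 and 61.9 CPM in AT-3 BMS204352 libraries and 28.2, 26.4 and 25.2 CPM in AT-3 DMSO libraries (log2 0.57 ± 0.25, adjusted p = 0.194 by edgeR). Hist1h2bc had 22.3, 26.6 and 35.9 CPM in AT-3 BMS204352 libraries and 22.2, 24.1 and 22.7 CPM in AT-3 DMSO libraries (log2 0.31 ± 0.12, adjusted p = 0.13 by edgeR). In both genes the high value is replicate 3, the library that stood apart. Hist1h2bc passed when replicate 1 of BMS204352 was left out (log2 0.45, adjusted p = 0.0125 by edgeR), which leaves that library among 2. Hist1h4i moved the other way in it, with 11.9, 12.03 and 6.999 CPM in AT-3 BMS204352 libraries and 12.7, 11.02 and 14.4 CPM in AT-3 DMSO libraries.

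Among the genes with the most reads in AT-3, some groups did not overlap although no difference passed the test. The comparisons given here were picked by that lack of overlap, which can arise by chance with 3 libraries a group. The share of all genes whose groups do not overlap was not counted. Hist3h2ba had 7.74, 8.63 and 7.05 CPM in NS11021 libraries, 7.82, 7.54 and 7.23 CPM in BMS204352 libraries and 6.46, 6.16 and 6.12 CPM in DMSO libraries of AT-3. Each library of either compound was above each DMSO library, but neither difference passed (log2 0.34 ± 0.14, adjusted p = 0.598, and 0.28 ± 0.14, adjusted p = 0.257, by edgeR). With KCl the range of Hist3h2ba was 4.11 to 5.97 CPM over the 9 libraries of KCl, KCl+NS11021 and KCl+BMS204352, below all 3 DMSO libraries. These groups were pooled without a test. Hist3h2a had 7.99, 8.76 and 7.996 CPM in BMS204352 libraries and 5.63, 7.41 and 6.14 CPM in DMSO libraries of AT-3, also without overlap and without passing (log2 0.38 ± 0.14, adjusted p = 0.125 by edgeR). Hist1h4i had 10.7, 11.3 and 9.45 CPM in KCl+BMS204352 libraries and 15.99, 12.6 and 14.7 CPM in KCl libraries of AT-3 (log2 −0.48 ± 0.17, adjusted p = 0.16 by edgeR). Summed over its 18 genes, H2B took 46.3 ± 6.997 CPM in BMS204352 libraries and 39.5 ± 0.220 CPM in DMSO libraries of AT-3 (SD, n = 3), and the highest of these, 53.9 CPM, was the library that stood apart.

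**Figure D4:**
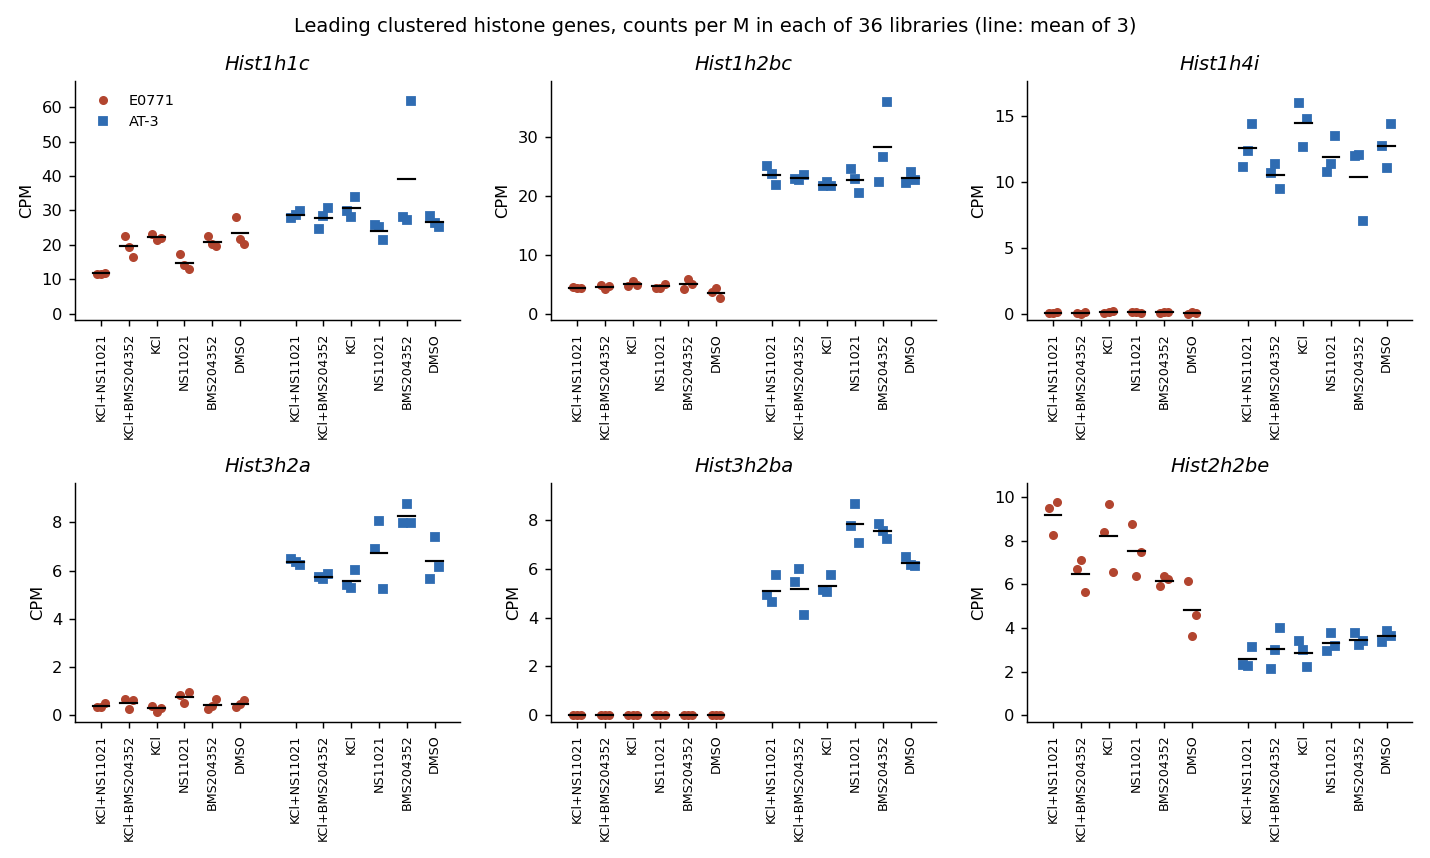
CPM of 6 leading clustered histone genes in each of the 36 libraries, with the mean of each group as a line, for E0771 (circles, left) and AT-3 (squares, right). Hist1h1c lies between 11.5 and 11.8 CPM in E0771 KCl+NS11021 libraries, and 1 AT-3 BMS204352 library stands at 61.9 CPM.

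In E0771 the linker gene Hist1h1c was lower in NS11021 and in KCl+NS11021, and the H2B genes Hist2h2be and Hist1h2bc were higher in some treatments. The comparisons with DMSO share the DMSO libraries and those with KCl share the KCl libraries, so their results are not independent. In each comparison 45 members were tested, 5 linker and 40 core.

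The comparison of NS11021 with DMSO in E0771 asked what 10 µM of this BK channel opener changes. Hist1h1c had 17.4, 13.97 and 12.8 CPM in NS11021 libraries and 27.9, 21.8 and 20.3 CPM in DMSO libraries, and every NS11021 library was below every DMSO library. The log2 fold change was −0.67 ± 0.12 (SE, adjusted p = 0.000116 by edgeR), a level 0.628 times that of DMSO. Hist2h2be had 8.76, 6.40 and 7.47 CPM in NS11021 libraries and 6.17, 3.64 and 4.61 CPM in DMSO libraries, without overlap (log2 0.65 ± 0.17, adjusted p = 0.00462 by edgeR). These 2 were the members called, 1 higher and 1 lower of 45, where 26.3% of all genes tested passed (12.8% higher and 13.5% lower). Core members had a median log2 fold change of −0.06, against 0.00 over all genes tested. The endothelial markers summed to between 2.48 and 3.07 CPM in NS11021 libraries and between 1.501 and 1.90 CPM in DMSO libraries. The epithelial markers summed to between 213 and 228 CPM in NS11021 and between 202 and 207 CPM in DMSO libraries. The fibroblast markers summed to between 216 and 226 CPM in NS11021 and between 236 and 259 CPM in DMSO libraries. Their part in these results was not tested. Of the other linker genes, Hist1h1d (−0.38), Hist1h1a (−1.64) and Hist1h1b (−1.06) had negative and Hist1h1e (0.50) a positive log2 fold change, and none of these passed.

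In KCl+NS11021 against KCl in E0771, which shares no library with the comparison of NS11021 and DMSO, Hist1h1c was lower again. It had 11.5, 11.6 and 11.8 CPM in KCl+NS11021 libraries and 23.3, 21.4 and 22.1 CPM in KCl libraries, a log2 fold change of −0.93 ± 0.12 (adjusted p = 5.06e-06 by edgeR) and a level 0.524 times that of KCl. The interaction of KCl and NS11021, which tests whether NS11021 acts differently with KCl, was −0.26 ± 0.17 for Hist1h1c (95% interval −0.61 to 0.09, adjusted p = 0.692 by edgeR). Hist1h1a was higher by log2 2.71 ± 0.94 (adjusted p = 0.0435 by edgeR), but with 36, 4 and 12 counts in KCl+NS11021 libraries and 6, 0 and 2 counts in KCl libraries, and the call was lost without replicate 1 or 3 of KCl+NS11021 and without replicate 2 or 3 of KCl. These were 1 higher and 1 lower of 45 members, where 17.2% of all genes tested passed (9.59% higher and 7.66% lower). The leukocyte markers summed to between 3.35 and 4.45 CPM in KCl+NS11021 and between 2.81 and 3.28 CPM in KCl libraries. The epithelial markers summed to between 148 and 156 CPM and between 158 and 167 CPM in the same order. The part of these markers in the calls was not tested. Of the 45, 34 had a negative log2 fold change, with a median of −0.37 against 0.01 over all genes tested. Likewise 32 of 45 were negative for KCl+BMS204352 against KCl, with a median of −0.25 against 0.01, and both comparisons share the KCl libraries. The 42 S phase genes summed to 6113 to 6193 CPM in KCl libraries. They summed to 5330 to 5464 CPM in KCl+NS11021 and 5097 to 5734 CPM in KCl+BMS204352 libraries, both without overlap with KCl. The 20 mitosis genes summed to 4204 to 4524 CPM in KCl libraries. They summed to 3962 to 3999 CPM in KCl+NS11021 and 3966 to 4253 CPM in KCl+BMS204352 libraries, where only the latter overlapped with KCl. The part of these genes in the negative signs was not tested.

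The 2 compounds were compared directly at 10 µM and 24 h, in 1 pair per line. In E0771, Hist1h1c had 17.4, 13.97 and 12.8 CPM in NS11021 libraries and 22.7, 20.3 and 19.5 CPM in BMS204352 libraries (log2 −0.51 ± 0.12, 95% interval −0.76 to −0.26, adjusted p = 0.0225 by edgeR). The libraries did not overlap, and Hist1h1c was the 1 member called lower, with 0 higher, where 1.76% of all genes tested passed (1.13% higher and 0.629% lower). The call was lost without replicate 1 of BMS204352 and without replicate 2 or 3 of NS11021, with adjusted p-values up to 0.163 among these and the other alternatives. In AT-3 the same difference was −0.70 ± 0.25 (95% interval −1.23 to −0.17, adjusted p = 0.146 by edgeR), with 25.6, 25.2 and 21.3 CPM in NS11021 libraries and 28.1, 27.1 and 61.9 CPM in BMS204352 libraries. It passed in AT-3 when replicate 1 or replicate 2 of BMS204352 was left out (adjusted p = 0.0455 and 0.0432 by edgeR), which leaves the library at 61.9 CPM among 2. For the core gene Hist2h2be the difference between the compounds in E0771 was 0.28 ± 0.17 (95% interval −0.06 to 0.62, adjusted p = 0.511 by edgeR). The leukocyte markers in E0771 summed to between 5.51 and 6.97 CPM in NS11021 and between 4.07 and 4.75 CPM in BMS204352 libraries. The endothelial markers summed to between 2.48 and 3.07 CPM and between 1.75 and 2.04 CPM in the same order. The part of these markers in the differences was not tested.

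BMS204352 against DMSO in E0771 gave 1 member higher and 0 lower of 45, where 22.7% of all genes tested passed (11.3% in each direction). Hist1h2bc had 4.2, 5.86 and 5.04 CPM in BMS204352 libraries and 3.63, 4.35 and 2.71 CPM in DMSO libraries, ranges that overlap (log2 0.50 ± 0.17, adjusted p = 0.0363 by edgeR). The call was lost without replicate 3 of BMS204352, which stood apart, without its replicate 2, and without replicate 1 or 3 of DMSO (adjusted p from 0.0734 to 0.203 by edgeR). The leukocyte markers summed to between 4.07 and 4.75 CPM in BMS204352 and between 4.99 and 6.44 CPM in DMSO libraries. The fibroblast markers summed to between 222 and 233 CPM in BMS204352 and between 236 and 259 CPM in DMSO libraries. The part of these markers in the call was not tested. Hist1h1c had 22.7, 20.3 and 19.5 CPM in BMS204352 libraries and 27.9, 21.8 and 20.3 CPM in DMSO libraries (log2 −0.16 ± 0.12, 95% interval −0.40 to 0.08, adjusted p = 0.36 by edgeR). In KCl+BMS204352 against KCl, the H3 gene Hist1h3f was lower. It had 1.70, 1.34 and 1.65 CPM in KCl+BMS204352 libraries and 2.65, 3.23 and 3.61 CPM in KCl libraries (log2 −1.02 ± 0.25, adjusted p = 0.0036 by edgeR). That was the 1 of 45 members called, where 19.9% of all genes tested passed (9.85% higher and 10.1% lower), and its groups did not overlap. Mitochondrial genes took 0.789 to 1.03% of counts in KCl+BMS204352 libraries and 0.678 to 0.739% in KCl libraries, and their part in this was not tested. Hist1h1c had 22.7, 19.3 and 16.5 CPM in KCl+BMS204352 libraries and 23.3, 21.4 and 22.1 CPM in KCl libraries, and did not pass (log2 −0.20 ± 0.12, adjusted p = 0.252 by edgeR). The interactions of KCl called 0 members with NS11021 and 0 with BMS204352, where 0.217% and 1.62% of genes passed, and DESeq2 called 0 in both. At an unadjusted p below 0.05 there were 3 and 4 of 45 members, where 1278 and 1738 of all 13357 genes tested reached that p.

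**Figure D5:**
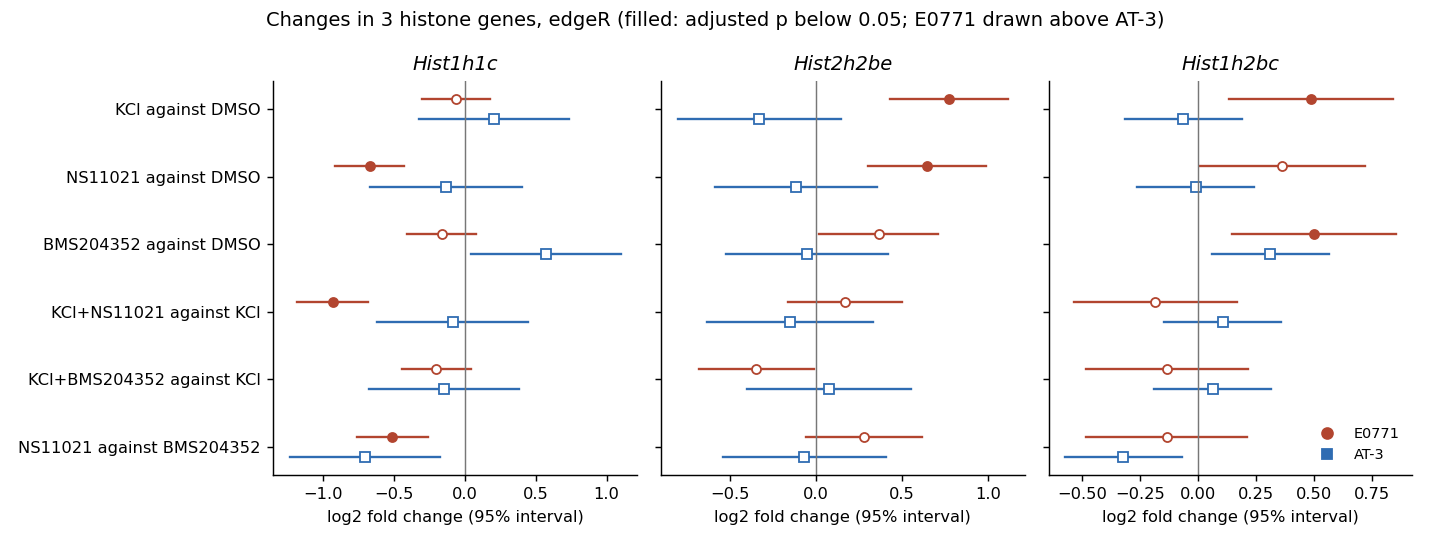
Log2 fold changes with 95% intervals from edgeR of Hist1h1c, Hist2h2be and Hist1h2bc in 6 comparisons, for E0771 (circles, above) and AT-3 (squares, below), with filled symbols at an adjusted p below 0.05. Hist1h1c lies at −0.67 and −0.93 for NS11021 in E0771 without and with KCl, and no AT-3 symbol is filled.

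In KCl against DMSO in E0771, 2 H2B genes were higher and 1 H3 gene was lower. Hist2h2be had 8.41, 9.67 and 6.56 CPM in KCl libraries and 6.17, 3.64 and 4.61 CPM in DMSO libraries, without overlap (log2 0.78 ± 0.17, adjusted p = 0.000438 by edgeR). Hist1h2bc had 4.71, 5.48 and 4.76 CPM in KCl libraries and 3.63, 4.35 and 2.71 CPM in DMSO libraries, also without overlap (log2 0.49 ± 0.17, adjusted p = 0.0272 by edgeR). Hist1h3h, an H3 gene, had 0, 0 and 4 counts in KCl libraries and 20, 16 and 4 counts in DMSO libraries (log2 −3.18 ± 1.13, adjusted p = 0.0272 by edgeR), and 93.9% of its 50-base words are shared, mainly with Hist1h3i. The call of Hist1h2bc was lost without replicate 1 or 3 of DMSO or replicate 2 of KCl, and that of Hist1h3h without replicate 1 or 2 of either group. These were 2 members higher and 1 lower of 45, where 36.4% of all genes tested passed (17.8% higher and 18.6% lower). Core members had a median log2 fold change of 0.17, against −0.01 over all genes tested. Marker sums of the 2 groups did not overlap in 3 lists. The 6 endothelial markers summed to between 3.54 and 6.76 CPM in KCl and between 1.501 and 1.90 CPM in DMSO libraries, the 8 leukocyte markers to between 2.81 and 3.28 CPM in KCl and between 4.99 and 6.44 CPM in DMSO libraries, and the 12 epithelial markers to between 158 and 167 CPM in KCl and between 202 and 207 CPM in DMSO libraries. Their part in these results was not tested. The 56 core genes other than the 5 leading ones summed to 26.2, 27.1 and 31.2 CPM in KCl libraries and to 23.6, 24.4 and 22.0 CPM in DMSO libraries, and the ranges did not overlap. By class, H2B genes summed to 19.1 ± 1.23 CPM in KCl and 12.7 ± 1.79 CPM in DMSO libraries and H3 genes to 10.1 ± 0.302 CPM in KCl and 7.94 ± 0.524 CPM in DMSO libraries (SD, n = 3), without overlap. The H2B sums include the called genes Hist2h2be (means of 8.21 CPM in KCl and 4.81 in DMSO) and Hist1h2bc (4.98 and 3.56). The H3 sums include Hist1h3f (3.16 and 2.24), Hist1h3e (2.08 and 1.35) and Hist1h3d (1.92 and 1.22), while Hist1h3h was lower. The class sums are thus not independent of these single genes. H2A genes summed to 5.91 ± 1.03 CPM in KCl and 6.01 ± 0.312 CPM in DMSO libraries and H4 genes to 6.70 ± 1.29 CPM in KCl and 5.58 ± 0.871 CPM in DMSO libraries, ranges that overlapped. Hist1h1c had 23.3, 21.4 and 22.1 CPM in KCl libraries and 27.9, 21.8 and 20.3 CPM in DMSO libraries (log2 −0.06 ± 0.12, 95% interval −0.30 to 0.18). The linker gene Hist1h1a had 6, 0 and 2 counts in KCl libraries and 16, 12 and 12 counts in DMSO libraries. It did not pass by edgeR in the main fit but was called lower by DESeq2 (log2 −2.30, adjusted p = 0.0445).

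The response of Hist2h2be to KCl differed between the lines. In AT-3 it had 3.42, 2.99 and 2.19 CPM in KCl libraries and 3.35, 3.86 and 3.65 CPM in DMSO libraries (log2 −0.33 ± 0.23, adjusted p = 0.51 by edgeR). The difference of the 2 effects, E0771 minus AT-3, was 1.10 ± 0.29 (adjusted p = 0.0119 by edgeR, fitted to all 36 libraries). It was the 1 member called of 53, where 9.13% of all genes tested passed. For NS11021 the line difference called 0 members (3.99% of genes passed) and for BMS204352 it called 0 (5.01%), with 2 and 1 of 53 members at an unadjusted p below 0.05 (17.7% and 19.1% of all genes tested) and 0 in both by DESeq2. The line difference in the NS11021 effect on Hist1h1c was −0.55 ± 0.29 (95% interval −1.13 to 0.04, adjusted p = 0.324 by edgeR). In AT-3 Hist1h1c had means of 24.0 ± 2.37 CPM in NS11021 and 26.6 ± 1.52 CPM in DMSO libraries (SD, n = 3). Without the replicate 3 libraries that stood apart the line difference was −0.52 and passed (adjusted p = 0.0337 by edgeR). Those are BMS204352 and KCl+BMS204352 libraries, so the NS11021 and DMSO libraries compared stayed the same and the rest of the fit changed. The AT-3 BMS204352 library at 61.9 CPM of Hist1h1c was among those left out. A fall of Hist1h1c that passed in E0771 and not in AT-3 is therefore not shown to differ between the lines with all libraries.

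Among other genes of histone supply, Slbp, which encodes the protein that binds the stem-loop, had means in E0771 of 86.1 ± 1.49 CPM in KCl, 50.2 ± 4.98 in NS11021, 54.8 ± 9.76 in BMS204352 and 69.1 ± 1.87 in DMSO libraries (SD, n = 3). It was higher in KCl (log2 0.33, adjusted p = 0.00783) and lower in NS11021 (−0.46, adjusted p = 0.00103) and BMS204352 (−0.33, adjusted p = 0.0144), all by edgeR. The counts of the lists that follow stand beside 36.4% of all genes tested that passed in KCl, 26.3% in NS11021 and 22.7% in BMS204352 against DMSO in E0771. Of 25 tested genes of histone mRNA processing and transcription, 4 were higher and 8 lower in KCl, 0 higher and 7 lower in NS11021 and 0 higher and 8 lower in BMS204352. The RNA effector Srrt (−0.57) and the decay helicase Upf1 (−0.35), on the log2 scale, had the smallest adjusted p in NS11021, while Cpsf3, the nuclease subunit that cuts the histone 3′ end, was lowest in KCl by that measure (−0.36). Of 42 genes of S phase and DNA replication, 13 were higher and 4 lower in KCl, 0 higher and 22 lower in NS11021 and 0 higher and 24 lower in BMS204352. The replication licensing gene Cdc6 fell by 0.67 on the log2 scale in NS11021 and by 0.60 in BMS204352. The median log2 fold change of these 42 was −0.22 in each compound against DMSO. Of 15 histone chaperones, 3 were higher and 3 lower in KCl, 0 and 6 in NS11021 and 0 and 4 in BMS204352, with Chaf1a, the large subunit of the assembly factor CAF-1, lower in NS11021 (−0.30) and BMS204352 (−0.26). Of 20 genes of G2/M and mitosis, 3 were higher and 2 lower in KCl, 1 and 3 in NS11021 and 0 and 5 in BMS204352.

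In AT-3 few genes of these lists passed the test, and few of all genes tested did. Against DMSO, 4.83% of all genes tested passed for KCl, 0.0745% for NS11021 and 5.27% for BMS204352. For KCl and NS11021 against DMSO 0 of the 42 S phase genes, 0 of the 26 processing genes, 0 of the 15 chaperones and 0 of the 20 mitosis genes passed. For BMS204352 3 S phase genes were lower, the cyclins Ccne1 (−0.37) and Ccne2 (−0.39) and the repressor E2f8 (−0.40), with 1 processing gene (Cstf1) and 1 mitosis gene (Kif20a) lower. The 20 mitosis genes summed to between 5006 and 5220 CPM in KCl, between 5318 and 5609 CPM in NS11021 and between 3469 and 5476 CPM in BMS204352 libraries, against 5671 to 5945 CPM in DMSO libraries of AT-3, so no group overlapped with DMSO. The 42 S phase genes summed to between 5136 and 5374 CPM in KCl libraries and between 5556 and 6009 CPM in DMSO libraries of AT-3, also without overlap. The part of these genes in the levels of clustered histone genes was not tested.

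The replacement histone genes, which are made through the whole cell cycle with poly(A) tails, were read deeply. Their 11 genes summed to between 1608 and 1673 CPM in E0771 DMSO libraries and between 3148 and 3355 CPM in AT-3 DMSO libraries. The H3.3 gene H3f3b had 395 ± 17.7 CPM in E0771 and 1614 ± 90.9 CPM in AT-3 DMSO libraries (SD, n = 3). It was lower in E0771 with KCl (−0.25), NS11021 (−0.25) and BMS204352 (−0.23), and in AT-3 with KCl (−0.61), all log2 values that passed by edgeR. The replacement linker gene H1f0 was higher with KCl in E0771 (0.37) and lower with KCl in AT-3 (−0.39), and that line difference passed (log2 0.76, adjusted p = 2.99e-05 by edgeR). In E0771, 3 of 10 tested replacement genes were higher and 1 lower in KCl (36.4% of all genes passed), 1 and 1 in NS11021 (26.3%) and 1 and 3 in BMS204352 (22.7%). In AT-3, 0 of 11 were higher and 2 lower in KCl (4.83% of all genes passed), 0 and 0 in NS11021 (0.0745%) and 0 and 1 in BMS204352 (5.27%). Of 20 genes listed for RNAs without a usual poly(A) tail, 2 were tested, Malat1 and Neat1, and neither passed in any comparison with DMSO. Malat1 had 53.9 ± 20.01 CPM in E0771 and 53.5 ± 15.2 CPM in AT-3 DMSO libraries (SD, n = 3).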

How the data were processed

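RNA of 2 mouse cell lines under 6 treatments was measured in 36 libraries. The authors deposited 1 table of read counts per Ensembl gene, not normalized. Per the submitters' processing notes, STAR and featureCounts were used with GRCm38; the sources used here do not give their versions, the strand setting or the treatment of reads with several matches. Of values from 1 to 10, 84.5% were even, so halved counts were tried too. Library totals were 31.2 to 52.6 M, and 2 IDs of human form (6 counts) were left out, as were 50 IDs without a symbol from naming (0.0009% of counts).

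All genes that passed edgeR's filterByExpr were fitted with edgeR 4.0.16 (TMM, robust quasi-likelihood, R 4.3.3), 13357 in E0771 and 14772 in AT-3 with 18 libraries each, and 15969 in a joint fit for contrasts between lines. The Benjamini-Hochberg adjustment ran over all genes tested, with calls at 0.05, and the fit was tested on simulated data. The replicate CV was 0.0707 in E0771 and 0.116 in AT-3. CPM divide a count by the library total. Alternatives were DESeq2 1.42.0, its size factors, other filters, a replicate block, halved counts, only the libraries compared, leaving out each library and leaving out the replicate 3 libraries that stood apart.

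Genes were named by rule: the 2 members of each class with the highest level per kb, all tested linker genes, up to 3 members per direction with the smallest adjusted p in a comparison, up to 4 members without a stem-loop, and up to 3 genes of each other list. Members named beside these were chosen after their values were seen. The members and lists were chosen with earlier results of these data known. Replicate numbers in the labels paired the libraries by the data (same-numbered deviations correlated above 0.1 in every pair, r from 0.122 to 0.492) for AT-3 KCl and NS11021 against DMSO and for both compounds with KCl in AT-3. They did not for the other comparisons within a line, those of E0771 among them.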

Additional observations from a re-analysis of the deposited data

Results flagged for a closer look

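Hist2h2be, an H2B gene, had opposite signs in the lines for KCl against DMSO, with a log2 fold change of 0.78 ± 0.17 in E0771 and −0.33 ± 0.23 in AT-3 (SE, n = 3 libraries a group). The difference of the effects, E0771 minus AT-3, was 1.10 ± 0.29 (adjusted p = 0.0119 by edgeR's quasi-likelihood test). It passed in 20 of 20 alternatives, with log2 values from 0.95 to 1.34 and adjusted p-values from 0.00212 to 0.045.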

How the results depend on the processing

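None of the 25 called changes of members that were followed across the alternatives reversed its direction. Hist1h1c for NS11021 against DMSO and for KCl+NS11021 against KCl, and Hist2h2be for KCl and NS11021 against DMSO, all in E0771, passed in 14 of 14 alternatives each. Counts of members called in E0771 that moved by more than 1.5 times were as follows. For KCl against DMSO, 5 were called by DESeq2 in place of 3 (Hist1h1a and Hist1h3d added). For BMS204352 against DMSO, 0 were called in place of 1 without the replicate 3 libraries that stood apart and with only the libraries compared. For KCl+NS11021 against KCl, 1 was called in place of 2 with a filter of 1 CPM, halved counts, DESeq2 or only the libraries compared. With only the libraries compared, 2 were called in place of 1 for KCl+BMS204352 against KCl (Hist1h3a added) and 0 in place of 1 for NS11021 against BMS204352. The interaction of KCl and BMS204352 called 1 with no filter, Hist2h2be (log2 −0.72, adjusted p = 0.0487 by edgeR). The line difference for KCl called 2 by DESeq2 or with only the libraries compared (Hist1h2bc added) and 3 without the replicate 3 libraries that stood apart (Hist1h2bc and Hist1h3f added). That for NS11021 called 1 (Hist1h1c) without those libraries.

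Leaving out each library in turn gave 1 to 3 members for KCl against DMSO, 2 to 3 for NS11021 and 0 to 1 for BMS204352 against DMSO, 1 to 2 for KCl+NS11021 against KCl, 0 to 1 for NS11021 against BMS204352 and 0 to 1 for the interaction of KCl and BMS204352 in E0771. It gave 0 to 1 for BMS204352 against DMSO and 0 to 2 for NS11021 against BMS204352 in AT-3. Line differences ranged over 1 to 2 for KCl and 0 to 1 for BMS204352, where Hist1h1c passed without replicate 1 or 2 of AT-3 BMS204352, and the baseline over 13 to 14. With the replicate block, KCl against DMSO in E0771 called 4 (Hist1h1a added) and the baseline 15, and 0 members passed in each AT-3 comparison. The labels do not say what a replicate number stands for. Counts under about 10 a library and shared sequence limit most members.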
